A study of Homo sapiens with 17 samples.

Results

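A group of 10 genes that encode adaptors and feedback inhibitors of the tumor necrosis factor (TNF) receptor was followed through 16 h of TNF-α in control and mutant p53 (mutp53)-depleted colon cancer cells. These genes are *TRAF1*, *TRAF2*, *RIPK1*, *BIRC2*, *BIRC3*, *TNFAIP3*, *TNIP1*, *CYLD*, *TNFAIP2* and *TNFAIP8*, found by symbol as 10 of the 26457 genes listed in the deposited expression table. The mRNA-seq experiment used human SW480 cells, a colon cancer line that expresses mutp53 and carries a stable, doxycycline-inducible short hairpin RNA (shRNA). The hairpin was directed against LacZ (shLacZ, called control) or against p53 (shp53, called mutp53-depleted). All cells were kept in puromycin at 1.5 µg/ml, were induced with doxycycline at 1 µg/ml and were harvested before (0 h) or 16 h after the addition of 12.5 ng/ml TNF-α. Each of the 4 groups holds 2 biological replicates, A and B, and the labels describe 1 cell line for each hairpin, so that a difference between the hairpins and a difference between the lines cannot be told apart. Values are reads on the exons of a gene scaled to the same total in every library, and are called normalized reads. The libraries held between 6108488 and 13809578 reads on genes, and 1 read is worth between 0.67 and 1.515 normalized reads.

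When TNF binds its receptor, the adaptor TRADD brings in TRAF2, the ubiquitin ligases cIAP1 and cIAP2 (encoded by *BIRC2* and *BIRC3*) and the kinase RIPK1. Ubiquitin chains built on RIPK1 recruit the kinases that release NFκB, and when those chains are missing RIPK1 can instead start cell death. Several genes that NFκB switches on encode its own brakes. Among them are the ubiquitin-editing enzyme A20 (*TNFAIP3*), its ubiquitin-binding partner ABIN1 (*TNIP1*) and the deubiquitinase *CYLD*, and the signal is thereby limited over hours.

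Short stretches of the promoters are shown first, because only some of these genes carry an NFκB consensus sequence close to a start site. RefSeq promoter windows of 300 bases, 250 before and 50 after an annotated start, were given for all 10 genes (20 windows, GRCh38.p14). The NFκB consensus was searched on both strands. It was found in windows of 4 of the 10 genes, *TNFAIP3*, *BIRC3*, *TNIP1* and *CYLD*, against 13.25% of all 27305 genes with a window. A gene with more windows has more places for a match. Counted by window, it was found in 5 of the 20, against 11.27% of all 35116 windows. The 4 stretches below hold 120 bases each before the start, written 5′ to 3′ on the strand of the gene, with coordinates in the same build and the consensus matches in capitals.
TNFAIP3, chr6:137867139-137867258, plus strand: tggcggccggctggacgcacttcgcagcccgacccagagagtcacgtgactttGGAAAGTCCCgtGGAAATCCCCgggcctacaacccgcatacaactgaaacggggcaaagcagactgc
BIRC3, chr11:102317255-102317374, plus strand: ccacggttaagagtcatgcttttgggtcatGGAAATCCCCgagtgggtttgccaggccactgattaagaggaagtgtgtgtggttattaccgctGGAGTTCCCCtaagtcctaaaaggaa
TNIP1, chr5:151081035-151081154, minus strand: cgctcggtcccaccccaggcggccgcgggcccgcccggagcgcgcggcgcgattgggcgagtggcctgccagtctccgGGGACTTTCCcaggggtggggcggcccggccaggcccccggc
CYLD, chr16:50741867-50741986, plus strand: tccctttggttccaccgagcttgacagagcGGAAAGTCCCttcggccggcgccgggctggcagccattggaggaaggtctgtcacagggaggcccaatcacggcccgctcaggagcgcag

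In *TNFAIP3* the matches begin 67 and 55 bases before the start and lie side by side. In *BIRC3* they begin 199 and 135 bases before it, and the match at 199 has the same 10 letters, GGAAATCCCC, as the nearer match of *TNFAIP3*. The *TNIP1* match begins 42 bases before the start. The *CYLD* match shown begins 189 bases before its start and has the same letters as the farther match of *TNFAIP3*, and another of the 3 *CYLD* windows holds GGGGCTTCCC at its start site. No match was found in the windows of *TRAF1*, *TRAF2*, *RIPK1*, *BIRC2*, *TNFAIP2* and *TNFAIP8*, which says only that these letters are not in those windows. The AP-1 motif TGANTCA, where N is any base, was found in the windows of 0 of the 10 genes and of 9.37% of all genes with a window. A match is a description of the sequence and not a bound site.

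Of the epithelial markers, *EPCAM*, *KRT8*, *KRT18*, *KRT19*, *CDH1* and *CDX2* were read in every library, whereas *KRT20* had at most 8.64 normalized reads. Several of these markers moved in the same comparisons as the 10 genes, and not all in the same direction. *VIL1* had, in control cells, 545 and 480 normalized reads before TNF-α and 125 and 112 after it, and at most 12.3 in mutp53-depleted cells. *CDH1* went from 485 and 467 to 87.0 and 78.3 with TNF-α in control cells and from 275 and 265 to 58.7 and 61.7 in mutp53-depleted cells. *EPCAM* lay between 4679 and 5976 in control libraries and between 2367 and 2511 in mutp53-depleted libraries. *KRT19* instead was higher after TNF-α and in mutp53-depleted cells. It went from 7394 and 7114 to 8437 and 8465 with TNF-α in control cells. In mutp53-depleted cells it went from 8647 and 8716 to 9957 and 10221. *CDX2* was lower after TNF-α but higher in mutp53-depleted cells. Its means in control and mutp53-depleted cells were 973 and 1060 at 0 h, and 464 and 539 at 16 h. The 8 epithelial markers summed to between 66178 and 70708 in control cells at 0 h and between 56292 and 56382 at 16 h, against 52455 to 52480 and 42729 to 43897 in mutp53-depleted cells. Most of each sum came from *KRT8* and *KRT18*. Of the markers of other cells, the leukocyte gene *PTPRC* and the fibroblast gene *COL3A1* were at 0 in all 8 libraries. Others were read. At 0 h the fibroblast genes *PDGFRB* and *COL1A1* had 4.35 and 6.06, and 33.4 and 33.3, in control cells. In mutp53-depleted cells they had 69.7 and 69.9, and 88.5 and 106. The leukocyte gene *CD68* ran from 18.9 in control cells at 0 h to 74.1 in mutp53-depleted cells at 16 h. The endothelial gene *VWF* reached 28.8, and no other of these markers exceeded 15.4. The 13 such markers summed to between 69.7 and 85.1 normalized reads in control libraries and to between 152 and 256 in mutp53-depleted libraries, and the part of these marker differences in the results below was not tested. In bulk libraries, fewer cells of a type and less RNA per cell cannot be told apart.

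Differences were tested with limma, fitting the 4 group means to log2(normalized reads + 1) for the 14800 genes whose mean over the libraries was 2.5 normalized reads or more. All 10 genes passed this filter. A gene is said to have risen or fallen at a Benjamini-Hochberg adjusted p under 0.05 over all genes tested together with a change of 2-fold or more. Adding 1 pulls the fold changes of weakly read genes toward 0. The SE of a limma estimate comes from a spread per gene shared by the 4 groups, and is not the spread of either line alone. The comparisons share groups: the control cells at 0 h, for example, enter both the TNF-α response of control cells and the difference between the lines at 0 h.

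**Figure D1:**
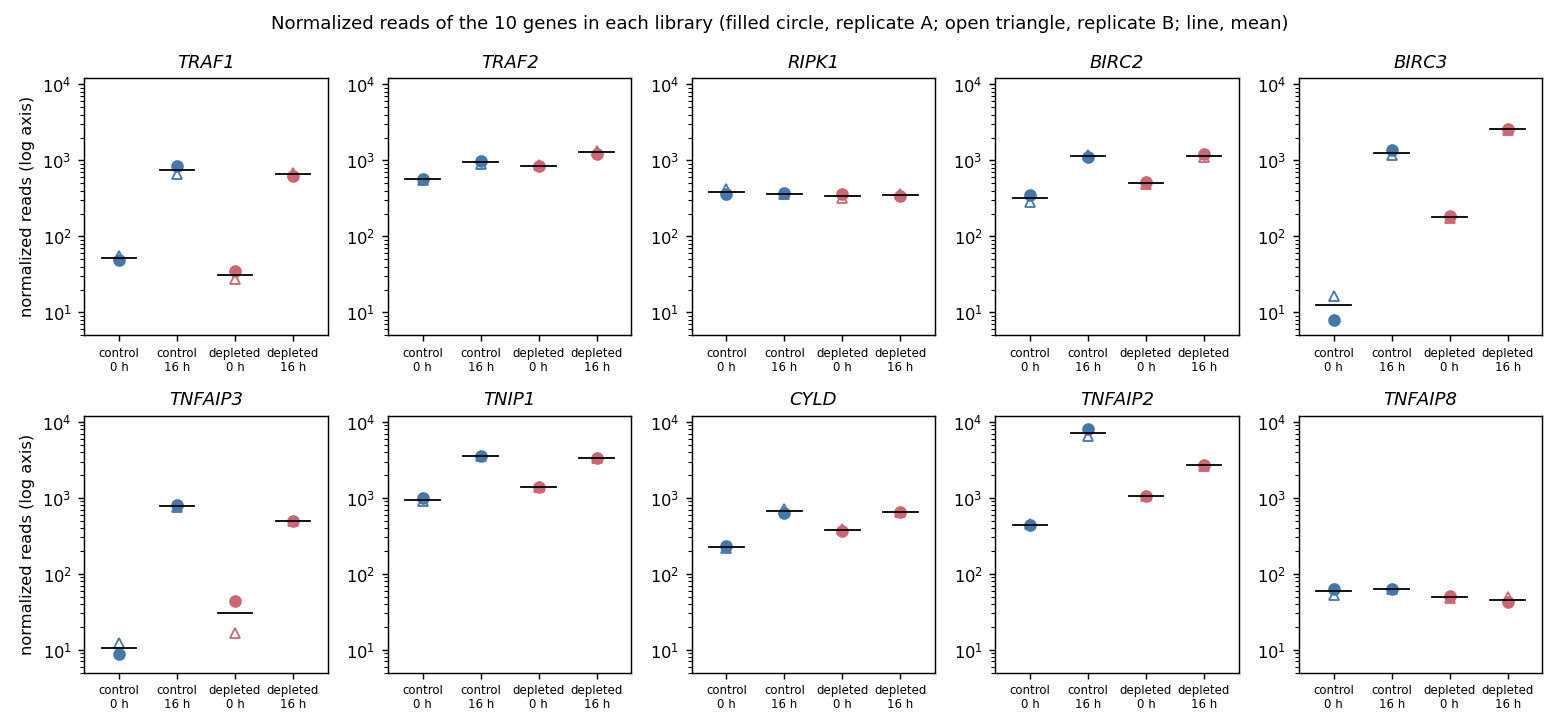
Normalized reads (log axis) of the 10 genes in each of the 8 libraries, with control cells in blue, mutp53-depleted cells in red, replicate A as a filled circle, replicate B as an open triangle and the mean as a line. *BIRC3* climbs from 7.98 and 16.7 to 1371 and 1169 in control cells and starts from 188 and 176 in mutp53-depleted cells, while *RIPK1* lies between 319 and 418 and *TNFAIP8* between 41.9 and 63.9 in the 8 libraries.

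TNF-α raised 7 of the 10 genes in control cells and lowered 0 of them, whereas 2.97% of all genes tested rose and 4.27% fell. *BIRC3* and *TNFAIP3* rose most, followed by *TNFAIP2* and *TRAF1*, then by *TNIP1*, *BIRC2* and *CYLD*. Over the 10 genes the log2 fold change had a median of 1.88, against −0.05 over all genes tested. In mutp53-depleted cells 6 of the 10 rose, and 0 fell, against 1.86% and 4.5% of all genes, with a median of 1.23 against −0.06. At an unadjusted p under 0.05, limma had 0 of the 10 lower in either line, and edgeR and DESeq2 also called 0 lower. The gene not shared by these lists was *CYLD*, which stayed under 2-fold in mutp53-depleted cells.

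*BIRC3* encodes cIAP2, the inducible partner of cIAP1 in ubiquitinating RIPK1. Its normalized reads in control cells were 7.98 and 16.7 at 0 h (11 reads in each library) and 1371 and 1169 at 16 h. In mutp53-depleted cells they were 188 and 176 at 0 h and 2591 and 2541 at 16 h. No group overlapped another, the uninduced control cells had the lowest level and the TNF-α-treated mutp53-depleted cells the highest. With TNF-α the log2 fold change was 6.65 ± 0.20 (SE) for the control line and 3.81 ± 0.20 for the mutp53-depleted line (adjusted p = 3.2e-14 and 1.0e-10). The control level at 0 h rests on few reads, and the control value moved between 6.16 and 7.14 over the alternative settings.

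*BIRC2*, encoding cIAP1, lies 7969 bases from *BIRC3* on chromosome 11 (hg19, *BIRC3* at chr11:102188181-102210135 and *BIRC2* at chr11:102218105-102249401, both on the plus strand). Its normalized reads in control cells were 348 and 283 at 0 h and 1111 and 1167 at 16 h. In mutp53-depleted cells they were 519 and 485 at 0 h and 1206 and 1105 at 16 h. The 4 libraries at 16 h overlapped between the lines, and all of them lay above all 0 h libraries. With TNF-α the log2 fold change was 1.86 ± 0.10 (SE) for the control line and 1.20 ± 0.10 for the mutp53-depleted line.

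*TNFAIP3* encodes A20, which removes and edits ubiquitin chains to shut the pathway down. Normalized reads in control cells were 8.71 and 12.1 at 0 h (12 and 8 reads) and 793 and 747 at 16 h. In mutp53-depleted cells they were 44.2 and 16.5 at 0 h (66 and 12 reads) and 498 and 496 at 16 h. The replicates of mutp53-depleted cells at 0 h stood farther apart, as a ratio, than those of any other group of this gene. The estimated log2 change with TNF-α was 6.09 ± 0.29 (SE) for the control line and 4.15 ± 0.29 for the mutp53-depleted line, and the mutp53-depleted value was 4.83 without replicate A at 0 h and 3.46 without replicate B.

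*TNIP1*, whose product ABIN1 ties A20 to ubiquitin chains, had, in control cells, 988 and 904 normalized reads at 0 h and 3598 and 3504 at 16 h. In mutp53-depleted cells the reads came to 1393 and 1377 at 0 h and 3361 and 3293 at 16 h. The mutp53-depleted libraries lay above the control libraries at 0 h and below them at 16 h, with no overlap. The estimated log2 change with TNF-α was 1.91 ± 0.07 (SE) for the control line and 1.26 ± 0.07 for the mutp53-depleted line. *CYLD*, a deubiquitinase that trims the linear and lysine-linked chains of the receptor complex, had, in control cells, 230 and 217 normalized reads at 0 h and 629 and 708 at 16 h. Its mutp53-depleted libraries had 369 and 392 at 0 h and 651 and 654 at 16 h. The lines did not overlap at 0 h and overlapped at 16 h. Its log2 change was 1.58 ± 0.09 for the control line and 0.78 ± 0.09 for the mutp53-depleted line (adjusted p = 5.4e-06), which is under 2-fold.

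*TNFAIP2*, named as a TNF-induced gene and known for a role in the formation of membrane tubes between cells, reached the highest level per kilobase of the 10 genes, in control cells at 16 h. It had, in control cells, 441 and 445 normalized reads at 0 h and 7946 and 6458 at 16 h. In mutp53-depleted cells it had 1049 and 1039 at 0 h and 2738 and 2614 at 16 h. The control cells therefore held both the lowest and the highest group. The estimated log2 change with TNF-α was 4.01 ± 0.08 (SE) for the control line and 1.36 ± 0.08 for the mutp53-depleted line (adjusted p = 3.5e-16 and 1.0e-09).

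*TRAF1*, an adaptor that joins TRAF2 and the cIAPs but has no ubiquitin ligase domain of its own, had, in control cells, 49.4 and 54.5 normalized reads at 0 h and 832 and 667 at 16 h. In mutp53-depleted cells there were 34.9 and 27.4 at 0 h and 630 and 686 at 16 h. The 16 h libraries of the lines overlapped, and the 0 h libraries did not. The estimated log2 change with TNF-α was 3.82 ± 0.15 (SE) for the control line and 4.37 ± 0.15 for the mutp53-depleted line. Of the 6 genes that rose in both lines, it was the gene with the larger estimate in mutp53-depleted cells.

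*TRAF2*, the adaptor that brings the cIAPs to the receptor, did not reach 2-fold in either line. It had, in control cells, 573 and 553 normalized reads at 0 h and 981 and 898 at 16 h, and in mutp53-depleted cells 844 and 858 at 0 h and 1221 and 1337 at 16 h. All 16 h libraries were above the 0 h libraries of the same line, with log2 fold changes of 0.74 and 0.58 (adjusted p = 1.1e-06 and 2.0e-05).

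*RIPK1* and *TNFAIP8* showed no called change. *RIPK1* stayed between 319 and 418 normalized reads in the 8 libraries, with log2 fold changes of −0.10 in control cells (95% interval −0.32 to 0.12) and 0.04 in mutp53-depleted cells (−0.18 to 0.26). *TNFAIP8*, a regulator of cell death and lipid signalling whose name records an induction by TNF, stayed between 41.9 and 63.9 normalized reads. Its log2 fold changes were 0.11 (−0.36 to 0.57) and −0.13 (−0.59 to 0.34), so that a change of 2-fold lies outside both intervals.

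**Figure D2:**
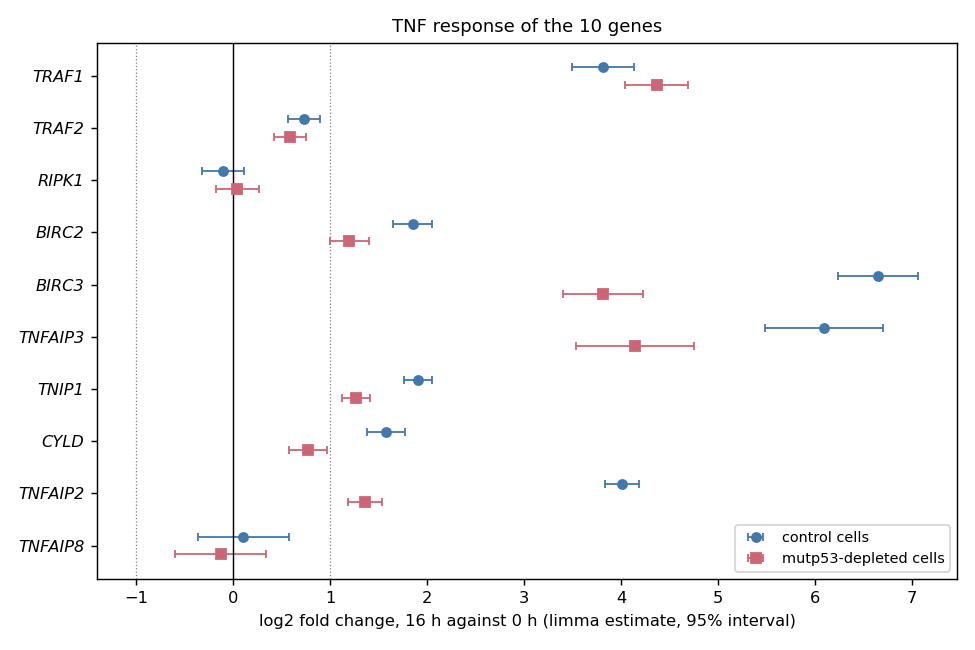
Log2 fold change of each of the 10 genes after 16 h of TNF-α, as limma estimates with 95% intervals, in control cells (blue circles) and mutp53-depleted cells (red squares), with dotted lines at 2-fold. *BIRC3* (6.65 and 3.81) and *TNFAIP2* (4.01 and 1.36) show the widest gaps between the lines, and *TRAF1* (3.82 and 4.37) lies the other way round.

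Before TNF-α, *BIRC3*, *TNFAIP3* and *TNFAIP2* were higher in mutp53-depleted cells, which is 3 of the 10 genes against 5.89% of all genes tested. By limma 0 of the 10 were called lower, against 9.55% of all genes, while 1 (*TRAF1*) was lower at an unadjusted p under 0.05 and edgeR and DESeq2 called 0. *BIRC3* was higher by 3.86 ± 0.20 (SE) on the log2 scale (adjusted p = 2.9e-11), *TNFAIP3* by 1.32 ± 0.29 (adjusted p = 0.00089) and *TNFAIP2* by 1.24 ± 0.08 (adjusted p = 9.3e-10). The *TNFAIP3* call rests on replicate A of the mutp53-depleted cells, without which the difference was 0.63 and under 2-fold. *CYLD*, *BIRC2*, *TRAF2* and *TNIP1* were also above their control libraries, by 0.77, 0.68, 0.60 and 0.55, each with an adjusted p under 0.05 and each under 2-fold. *TRAF1* was lower in both mutp53-depleted libraries, with a log2 difference of −0.73 ± 0.15 (adjusted p = 0.00057), again under 2-fold. The median of the 10 genes was 0.64, against 0.03 over all genes tested.

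After 16 h of TNF-α, *BIRC3* was still higher in mutp53-depleted cells and *TNFAIP2* was now lower. These are 1 of the 10 genes in each direction, where 5.03% of all genes were higher and 10.2% were lower. The *BIRC3* difference was 1.02 ± 0.20 (SE) on the log2 scale, which is at the 2-fold limit. It came to 1.00 with edgeR and was 0.90 without replicate B of the control cells at 16 h, and is then no longer called. *TNFAIP2* had a log2 difference of −1.42 ± 0.08 (adjusted p = 1.6e-10). *TNFAIP3* was lower in both mutp53-depleted libraries, with a difference of −0.63 (95% interval −1.24 to −0.02). Its adjusted p was 0.078, and ran from 1.3e-09 with the edgeR exact test to 0.25 without replicate A of the control cells at 16 h. *TNIP1*, *BIRC2* and *CYLD*, which differed at 0 h, had differences of −0.09 (−0.24 to 0.05), 0.02 (−0.18 to 0.22) and −0.03 (−0.23 to 0.16). *TRAF1* had a difference of −0.18 (−0.50 to 0.14).

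*TRAF2* remained above the control libraries at 16 h, by 0.44 ± 0.08 (SE), and it stands apart from the genes around it. The median log2 difference of up to 25 tested genes on each side of *TRAF2* on chromosome 9 (hg19 chr9:139780965-139821067) was −0.78 at 0 h and −0.57 at 16 h. With this median subtracted, *TRAF2* was higher by 1.38 at 0 h and 1.01 at 16 h and would be called at both times. Around the other 9 genes the median lay between −0.15 and 0.30, and with it subtracted *BIRC3* at 16 h was 0.86. The part of these regional differences in the values of the genes was not tested. *RIPK1* had differences of −0.20 (95% interval −0.42 to 0.02) at 0 h and −0.05 (−0.27 to 0.17) at 16 h. *TNFAIP8* had differences of −0.22 (−0.69 to 0.25) and −0.45 (−0.92 to 0.01), with both mutp53-depleted libraries below both control libraries at each time. With the median of its neighbouring genes subtracted, *TNFAIP8* was at −0.50 at 0 h and −0.76 at 16 h, under 2-fold.

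**Figure D3:**
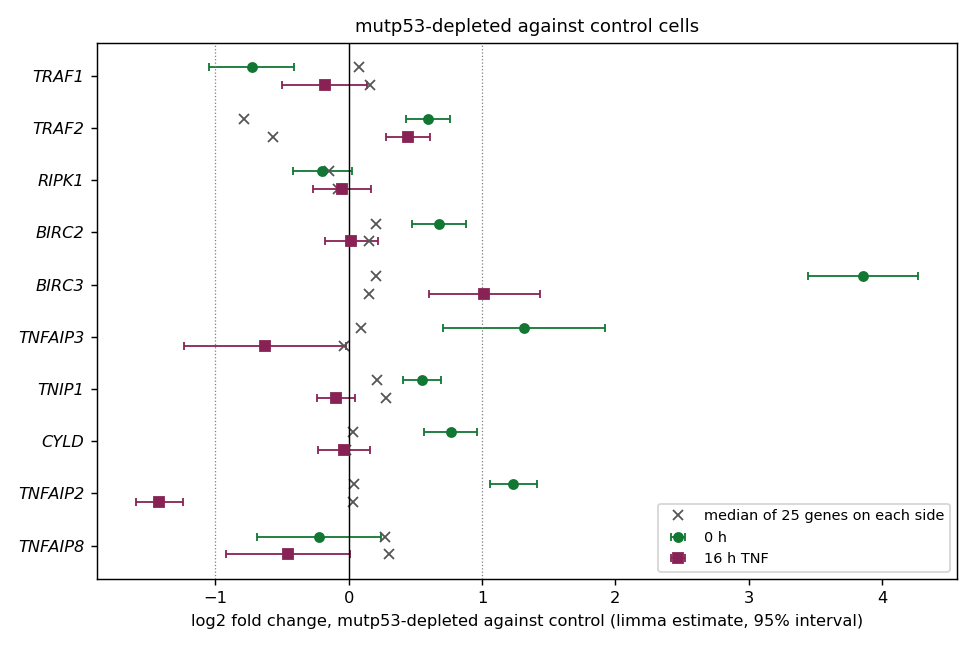
Log2 difference between mutp53-depleted and control cells for each of the 10 genes at 0 h (green circles) and after 16 h of TNF-α (purple squares), as limma estimates with 95% intervals. Crosses are the median difference of the genes on each side, and dotted lines mark 2-fold. *BIRC3* is at 3.86 and 1.02 and *TNFAIP2* at 1.24 and −1.42, while the crosses of *TRAF2* lie at −0.78 and −0.57, opposite to the gene.

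Whether the response to TNF-α differed between the lines was tested as an interaction, the difference between the lines at 16 h less that at 0 h, at an adjusted p under 0.05. It was lower in mutp53-depleted cells for 6 of the 10 genes, against 2.21% of all genes, and higher for 0 of 10, against 0.655%. At an unadjusted p under 0.05, limma had 1 of the 10 higher (*TRAF1*), and edgeR and DESeq2 called 0. The interaction was −2.84 ± 0.28 (SE) for *BIRC3* (adjusted p = 1.5e-05), −2.66 ± 0.12 for *TNFAIP2* (2.1e-10), −1.95 ± 0.41 for *TNFAIP3* (0.011), −0.80 ± 0.13 for *CYLD* (0.0017), −0.66 ± 0.14 for *BIRC2* (0.0099) and −0.64 ± 0.10 for *TNIP1* (0.00066). The *TNFAIP3* call was lost without replicate A of the control cells at 0 h, without either replicate of the control cells at 16 h, and with no filter on low values, with adjusted p from 0.053 to 0.071. Its value was −1.26 without replicate A of the mutp53-depleted cells at 0 h and −2.63 without replicate B. The *BIRC2* call was lost without replicate B of the control cells at 0 h or 16 h, replicate A of the mutp53-depleted cells at 0 h or replicate B of the mutp53-depleted cells at 16 h, with adjusted p from 0.054 to 0.070. *TRAF1* had an interaction of 0.55 (95% interval 0.10 to 1.00, adjusted p = 0.23), *TRAF2* of −0.15 (−0.39 to 0.08), *RIPK1* of 0.15 (−0.16 to 0.46) and *TNFAIP8* of −0.23 (−0.89 to 0.43).

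The 6 lower responses were not alike in their levels. *TNIP1*, *BIRC2* and *CYLD* were higher in mutp53-depleted cells at 0 h, and their intervals at 16 h include 0. With the median of its neighbouring genes subtracted, *TNIP1* at 16 h was at −0.38 (limma, adjusted p = 0.00024), under 2-fold. For *BIRC3* both levels were higher in mutp53-depleted cells. For *TNFAIP2* and *TNFAIP3* the level was higher at 0 h and lower at 16 h in both mutp53-depleted libraries, although the 16 h difference of *TNFAIP3* was not called.

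On the linear scale, the increase of *BIRC3* from 0 h to 16 h was 1258 ± 101 normalized reads (SE, n = 2 libraries a group) in the control line and 2384 ± 26.0 in the mutp53-depleted line, so that its rise was smaller as a fold and larger as a number of reads. The increase of *TNFAIP2* was 6759 ± 744 in the control line and 1632 ± 62.3 in the other, and that of *TNFAIP3* 759 ± 23.0 and 467 ± 13.9. That of *TNIP1* was 2605 ± 63.1 and 1942 ± 35.1, that of *BIRC2* 823 ± 42.6 and 653 ± 53.7, and that of *CYLD* 446 ± 40.1 and 272 ± 11.9. For *TRAF1* the increases were 698 ± 82.6 and 627 ± 28.1, and for *TRAF2* 376 ± 43.0 and 427 ± 58.4, in each case closer together than the sum of their errors. These increases were not tested.

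Levels of different genes are compared per kilobase of exon. In control cells at 0 h the order ran from *TNIP1* (324 ± 20.4 normalized reads per kb, SD, n = 2) and *TRAF2* (249 ± 6.36) through *TNFAIP2* and *RIPK1*, whose libraries overlapped, and *BIRC2*, *TNFAIP8*, *CYLD* and *TRAF1* to *TNFAIP3* (2.20 ± 0.51) and *BIRC3* (1.79 ± 0.89), which also overlapped. After TNF-α it was led by *TNFAIP2* (1730 ± 253) and *TNIP1* (1217 ± 22.8), with *BIRC3*, *TRAF1* and *TNFAIP3* next to each other at 184 ± 20.6, 169 ± 26.3 and 163 ± 6.85 and neighbours in this order overlapping. In mutp53-depleted cells *TNIP1* led at both times, at 474 ± 3.84 and 1140 ± 16.6, and *TNFAIP2* was at 643 ± 21.1 after TNF-α. *TNFAIP3* was the lowest at 0 h (6.42 ± 4.16), where it overlapped *TRAF1*, and *TNFAIP8* was the lowest at 16 h in both lines.

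The balance within pairs of related genes shifted with these levels. Per kilobase, *BIRC3* stood at 1.35% and 3.46% of *BIRC2* in control cells at 0 h and at 72.6% and 59.0% at 16 h. In mutp53-depleted cells it stood at 21.3% in both replicates at 0 h and above *BIRC2* at 16 h, with ratios of 1.26 and 1.35. *TRAF1* went from 4.39% and 5.03% of *TRAF2* to 43.3% and 37.9% in control cells, and from 2.10% and 1.63% to 26.3% and 26.2% in mutp53-depleted cells. The libraries of the 4 groups did not overlap for either pair. *TNFAIP3* went from 6.96% and 10.3% of *CYLD* to ratios of 2.32 and 1.94 in control cells. In mutp53-depleted cells it went from 22.1% and 7.71% to ratios of 1.41 and 1.39. Which gene of a pair is higher depends on the exon lengths listed, such as 6901 bases for *BIRC3* and 4062 for *BIRC2*. In normalized reads, *BIRC3* was above *BIRC2* in control cells at 16 h too (1371 and 1169 against 1111 and 1167). By the same measure *TNFAIP3* was below *CYLD* in mutp53-depleted cells at 16 h (498 and 496 against 651 and 654).

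**Figure D4:**
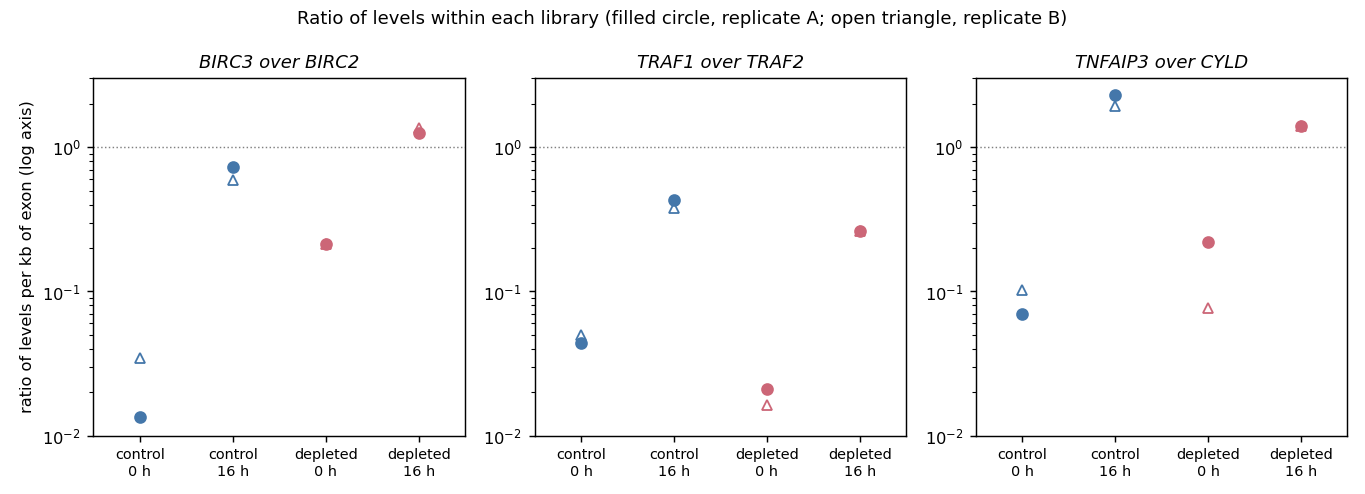
Ratio of the levels per kilobase of exon (log axis) of *BIRC3* to *BIRC2*, *TRAF1* to *TRAF2* and *TNFAIP3* to *CYLD* within each library, with control cells in blue, mutp53-depleted cells in red, replicate A as a filled circle and replicate B as an open triangle. Per kilobase, *BIRC3* exceeds *BIRC2* (dotted line at equal levels) only in the mutp53-depleted libraries at 16 h, at 1.26 and 1.35, and *TRAF1* remains below *TRAF2* in all 8 libraries. In reads not divided by exon length, *BIRC3* is also above *BIRC2* in the control libraries at 16 h.

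Other genes of the pathway were read from a list of 50, of which 47 passed the filter and *TNIP3*, *TNFAIP6* and *TNFAIP8L2* were at 0 in every library. In control cells 8 of the 47 rose with TNF-α and 0 fell, where 2.97% of all genes rose and 4.27% fell, with a median log2 fold change of 0.27 against −0.05 over all genes tested. By limma 1 of the 47, *TAB1*, was lower at an unadjusted p under 0.05, and edgeR and DESeq2 called 0 lower. Of the 8 that rose, 6 were among the 7 genes of NFκB and its inhibitors, 1 among the 13 kinases and their partners and 1 among the 3 *TNFAIP*-named genes. None of the 2 receptors, 8 adaptors and TRAF proteins, 6 ubiquitin ligases, 5 deubiquitinases and A20 partners or 3 death-branch genes reached the 2-fold limit, with log2 fold changes from −0.28 to 0.95. The largest rises were in *NFKBIA* (3.78), the inhibitor that holds NFκB in the cytoplasm, the NFκB subunit gene *RELB* (3.28), the inhibitor *NFKBIE* (2.89), the subunit gene *NFKB2* (2.55) and *IKBKE* (2.41), a kinase related to the IκB kinases. In mutp53-depleted cells 5 of the 47 rose, which were these same 5 genes, from 1.36 for *IKBKE* to 2.40 for *RELB*, where 1.86% of all genes rose.

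The interaction was lower in mutp53-depleted cells for 8 of the 47 genes and higher for 0, against 2.21% and 0.655% of all genes, with a median of −0.14 against −0.03 over all genes tested. At an unadjusted p under 0.05, limma also had 0 of the 47 higher, as did the calls of edgeR and DESeq2. The largest were *NFKBIA* (−1.43), *IKBKE* (−1.05), *NFKB2* (−0.93), *NFKBIE* (−0.89) and *RELB* (−0.89). *NFKBIA* had, in control cells, 131 and 114 normalized reads at 0 h and 1808 and 1568 at 16 h, and in mutp53-depleted cells 226 and 195 at 0 h and 1097 and 1053 at 16 h. The 16 h level of *NFKBIA* was thus lower in both mutp53-depleted libraries, with a log2 difference of −0.65 ± 0.10 (SE), under 2-fold. Both libraries were also lower for *TNFAIP2* (−1.42, called) and *TNFAIP3* (−0.63, not called). The *NFKBIE* call was lost without replicate B of the control cells at 0 h, replicate A of the control cells at 16 h or replicate A of the mutp53-depleted cells at either time, with adjusted p from 0.052 to 0.074.

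At 0 h, 3 of the 47 genes were higher in mutp53-depleted cells and 2 lower, where 5.89% of all genes were higher and 9.55% lower. These counts are near or under the shares over all genes and set the list apart in neither direction. *MAP3K14*, the kinase that starts the noncanonical NFκB pathway and is itself degraded through TRAF2 and the cIAPs, had 242 and 233 normalized reads in control cells and 634 and 650 in mutp53-depleted cells (log2 difference 1.43 ± 0.09, SE). *NFKBIB* and *TNFAIP1* were higher by 1.40 and 1.13. *RIPK4* was lower, with a difference of −2.30. *RIPK3*, the kinase that acts after RIPK1 in necroptosis, had 18.9 and 10.6 normalized reads in control cells and 0 in all 4 mutp53-depleted libraries, which is at least 4.81-fold lower at 0 h against 3 reads per library. In control cells at 16 h it had 28.0 and 14.2. At 16 h *MAP3K14* was higher by 1.56 and 4 genes were lower, again under the 5.03% and 10.2% of all genes. These were *RIPK3*, at least 6.80-fold lower, *RIPK4* (−2.13), *RELB* (−1.07) and the A20 partner *TAX1BP1* (−1.07), whose neighbouring genes had a median of −1.37. With the median of the neighbouring genes subtracted, *MAP3K14* and *NFKBIB* at 0 h (0.97 and 0.92) and *RELB* at 16 h (−0.59) were under 2-fold, and *TAX1BP1* was at 0.29.

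**Figure D5:**
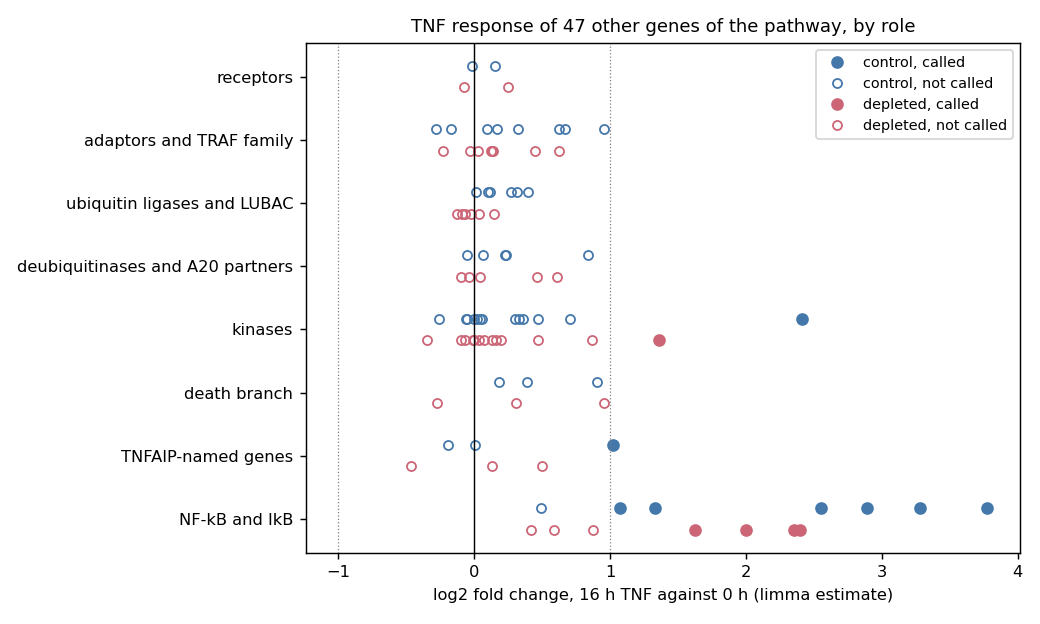
Log2 fold change with 16 h of TNF-α of the 47 other pathway genes tested, as limma estimates grouped by role, in control (blue) and mutp53-depleted cells (red), with called genes filled and dotted lines at 2-fold. The called genes gather in the NFκB and IκB group, up to 3.78 for the control line and 2.40 for the mutp53-depleted line, with 1 kinase (2.41 and 1.36) and, in control cells, 1 *TNFAIP*-named gene beside them.

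The genes with the most similar pattern to *TNFAIP3*, *TRAF1* and *BIRC3* were sought among all genes tested, by the root mean square difference of the 4 group means on the log2 scale after centring. Nearest to *TNFAIP3* were *CPA4* (0.38), *TMEM52B* (0.40) and *CXCL8* (0.42). Nearest to *TRAF1* were *CLEC1A* (0.31), *IL7R* (0.38) and *CCL5* (0.44), which were at 0 in all 4 libraries at 0 h. Their difference between the lines at 0 h is therefore 0, where that of *TRAF1* was −0.73. The size of their rise depends on the 1 added before taking logs. Nearest to *BIRC3* were *ROBO4* (0.60), *CTSS* (0.70) and *CSF2* (0.75), at larger distances than the neighbours of the other genes. All 9 were lower than 10 normalized reads in control cells at 0 h, so that their patterns there rest on few reads or none.

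Set beside the promoter sequences, the 4 genes with an NFκB consensus match (*TNFAIP3*, *BIRC3*, *TNIP1* and *CYLD*) all rose in control cells, and so did 3 of the 6 without a match (*TRAF1*, *BIRC2* and *TNFAIP2*). The 4 genes with a match all had a lower fold response (interaction) in mutp53-depleted cells, and so did *BIRC2* and *TNFAIP2*. The *TNFAIP3* and *BIRC2* calls were lost in some settings, and the increase of *BIRC3* in reads was larger in mutp53-depleted cells. Neither comparison with the promoter sequences was tested.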

How the data were processed

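mRNA-seq was made from 4 groups of SW480 cells with 2 libraries each, labelled A and B in the column names. The authors prepared strand-specific poly(A) libraries, sequenced single ends of 50 bases, mapped them with STAR and counted reads per gene model. The authors deposited signal values, which are these reads times 1 factor per library that makes the totals equal. Reads were recovered as whole numbers for 100% of values in every library (tolerance 0.02 normalized reads). The table gives hg19 coordinates, whereas the study's methods name hg38, and neither was converted to the other. The deposited log2 fold changes, p-values and adjusted p-values (4 comparisons by the authors) were not used, nor were the ChIP-seq and GRO-seq data.

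Values were analysed as log2(normalized reads + 1) for genes averaging 2.5 or more, with limma 3.58.1 (lmFit, contrasts.fit, eBayes with trend) in R 4.3.3. Figures used matplotlib 3.10.9. The procedure was tested on simulated data. Alternatives were median ratio scaling, pseudocounts of 0.1 and 5, a minimum mean of 10, no filter, the replicate letter as a block, edgeR 4.0.16 and DESeq2 1.42.0 on the recovered reads, the neighbours' median removed (25 genes on each side), and leaving out each library. Libraries of the same group differed beyond counting noise (chi-square of 2.14 to 4.10 per gene).

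The 10 genes, the pathway list and the tests were chosen with earlier results of these data known. Named genes are the 10, the pathway genes called in a comparison (at most 5 per direction) and the 3 nearest patterns to 3 of the genes. Marker genes are given as a check of cell type. The efficiency of the hairpin is not reported here.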

Additional observations from a re-analysis of the deposited data

Results flagged for a closer look

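The response to TNF-α differed between the lines, by the interaction test at an adjusted p under 0.05 (limma), for the following genes, with each log2 value lower in the mutp53-depleted line. Among the 10 genes these were *BIRC3* (−2.84), *TNFAIP2* (−2.66), *TNFAIP3* (−1.95), *CYLD* (−0.80), *BIRC2* (−0.66) and *TNIP1* (−0.64). Among the pathway genes named above they were *NFKBIA* (−1.43), *IKBKE* (−1.05), *NFKB2* (−0.93), *NFKBIE* (−0.89), *RELB* (−0.89) and *TNFAIP1* (−0.52), the last of which was lost without replicate B of the mutp53-depleted cells at 0 h (limma, adjusted p = 0.070). Lower responses made up 327 of the 424 interactions over all genes tested.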

How the results depend on the processing

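With 2 libraries in a group, the calls near a limit moved with single libraries. The labels do not say whether libraries with the same letter are paired. The A less B differences of the 4 groups had correlations from −0.02 to 0.07, which cannot decide it. Replicate A was the deeper library in each group. With the replicate block the number of the 10 genes called was 7, 6, 3, 2 and 6 in the 5 comparisons, as without it, and it changed no other call among the 10 genes. The replicate block called 559 of all genes in the interaction, against 424 without it. At 16 h, 1 of the 10 genes in place of 2 was called between the lines with edgeR (quasi-likelihood and exact test), and between 1 and 2 when a library was left out, because *BIRC3* fell just under 2-fold. With the neighbours' median removed, 3 in place of 5 pathway genes were called at 0 h and at 16 h, and *TAX1BP1* (0.29), *BIRC2* (−0.14) and *RIPK1* (0.027) changed sign at 16 h. Leaving out a library gave 5 to 7 pathway genes (8 with all libraries) and 208 to 421 of all genes (424 with all libraries) in the interaction. The sign of uncalled values changed when a library was left out for *TNFAIP8* (from −0.026 to 0.24) and *RIPK1* (from −0.21 to 0.0031) in the TNF-α response of control cells, for *RIPK1* in mutp53-depleted cells (from −0.041 to 0.13), and between the lines at 16 h for *BIRC2* (from −0.043 to 0.084) and *CYLD* (from −0.12 to 0.052). The cause was not tested. Of the *TNFAIP3* interaction, the adjusted p was 0.053 with no filter.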
